A study of Homo sapiens with 15 samples.

Results

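MTAP, CDKN2A, CDKN2B and KLHL9 lie within a short stretch of the short arm of human chromosome 9, in a region that melanomas often lose. The genes were looked up by symbol in a table of 18322 genes from A375, a human melanoma cell line, to describe their level in every library as a check on cell identity. Of the 4 genes, 3 have a row (MTAP, CDKN2A and KLHL9), and CDKN2B was not analysed here. RNA had been sequenced in 15 libraries, 3 for each of 5 groups, and the series calls each set of 3 biological triplicates. The groups are A375 cells given MYC T58A, a form of the MYC transcription factor that is degraded slowly (MYC T58A), PLX4720-resistant cells whose labels name a hairpin RNA against MYC, either shMYC1 or shMYC2, the PLX4720-resistant cells (Resistant), and the unmodified line (Parental). PLX4720 inhibits the mutant BRAF kinase that A375 carries. The resistant cells are a single clonal population, so nothing here measures variation between resistant clones. Whether the drug was present at harvest, and how MYC T58A and the hairpins were introduced, is not given in the sources used here. Levels are normalized reads per gene, that is, read counts scaled for the depth of the library and not for gene length, so a level is compared between libraries and not between genes. The members were chosen by their measured levels in these same libraries, so these levels are described without a test.

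MTAP encodes methylthioadenosine phosphorylase, which splits methylthioadenosine, a by-product of polyamine synthesis, and so starts the salvage of adenine and methionine. CDKN2A encodes the protein p16INK4a, which holds the kinases CDK4 and CDK6 in check upstream of RB, and from another start the protein ARF, which restrains the ubiquitin ligase MDM2. CDKN2B encodes a further inhibitor of the same kinases, CDKN2B-AS1 (also called ANRIL) is a long non-coding RNA read from the opposite strand, and KLHL9 encodes a substrate adaptor of the CUL3 ubiquitin ligase. CDKN2A is a tumour suppressor of melanoma, and MTAP is often lost together with it. Cells without MTAP accumulate methylthioadenosine, which inhibits the arginine methyltransferase PRMT5.

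The libraries held 24222192 to 30399644 reads in genes, and the table lists 1636 to 1694 genes at 0 in shMYC2-labelled libraries, against 296 to 665 in the other 12. MYC itself went against both hairpin labels, with a mean of 3511 normalized reads in MYC T58A, 486 in shMYC1-labelled libraries, 7817 in shMYC2-labelled ones, 302.5 in Resistant and 422.7 in Parental. For that reason the hairpin groups are called by their labels throughout (shMYC1-labelled and shMYC2-labelled). The label of melanocyte was set against 17 markers, of which 15 have a row. Their summed level was 4504 to 4960 normalized reads in MYC T58A, 18527 to 21523 in shMYC1-labelled libraries, 1951 to 1970 in shMYC2-labelled ones, 5121 to 5458 in Resistant and 10245 to 10459 in Parental. SOX10, a transcription factor of the melanocyte lineage, made up much of the sums in shMYC1 and Parental, with 7.05 to 11 normalized reads in MYC T58A, 11031 to 13181 with shMYC1, 16.1 to 23.5 with shMYC2, 4.70 to 9.60 in Resistant and 5178 to 5453 in Parental. Other markers went the other way, such as MITF, higher in Resistant than in Parental (log2 difference 1.31, limma adjusted p = 2.25e-10). With shMYC2, MITF was lower than in Resistant (-4.44). The melanin enzyme gene DCT had no read in shMYC2-labelled libraries, but it was also low in Resistant (log2 difference -1.77 on the log2(value + 1) scale). It was far higher in MYC T58A than in Parental (5.43). MLANA and TYR are not analysed here. Fibroblast markers, all 10 in the table, summed to 2459 to 2547 normalized reads with shMYC2 and 4349 to 4640 in Resistant, against 458 to 835 in the other groups. Most of the shMYC2 sum was THY1 (1950 ± 39.8 normalized reads, against 2.44 ± 3.46 in Resistant), while 6 of the 10 fell there, among them LUM (log2 difference -9.33, adjusted p = 4.66e-20). Of all genes tested, 43% were called lower in shMYC2-labelled libraries than in Resistant. The 4 immune markers summed to 3087 to 3618 normalized reads in Resistant, against 107 to 328 elsewhere, of which LCP1 alone gave 3098 ± 277 in Resistant, against 61.1 ± 4.48 in Parental. Endothelial markers (6 in the table) were highest with shMYC2, at 705 to 775 against 166 to 517 elsewhere. Of the 5 tested, 3 were higher and 1 lower there than in Resistant (80% called, against 79.2% of all genes). KDR rose (log2 difference 2.49), while CDH5 fell (-3.64). The 10 epithelial markers were lowest with shMYC2, at 2979 to 3123, with KRT5 and ELF3 at 0. The part of these markers in the results that follow was not tested. Within groups, library 2 of shMYC1 differed most from its partners (chi-square 29.1 and 19.9 per gene, against 1.65 to 8.05 for all other pairs). Without it MTAP and CDKN2A had ratios to Resistant of 1.47 and 1.63, against 1.46 and 1.59 with it.

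The sequence around the start of each of these genes is shown because MTAP and CDKN2A on one side and CDKN2B-AS1 on the other differed in opposite directions in shMYC2-labelled libraries, and because CDKN2A has a pair of starts whose reads the table adds up. Each window runs from 250 bases before to 50 after the start, in RefSeq's sequence of build GRCh38.p14, 5′ to 3′ on the strand of the gene. Capitals mark GGGCGG (the GC box) or its complement CCGCCC, and CCAAT (the CCAAT box) or its complement ATTGG. These motifs and CACGTG (the E-box, a sequence that MYC is known to bind) were searched on both strands, and none of the matches overlap one another.
KLHL9 (chr9:21335355-21335654, minus strand): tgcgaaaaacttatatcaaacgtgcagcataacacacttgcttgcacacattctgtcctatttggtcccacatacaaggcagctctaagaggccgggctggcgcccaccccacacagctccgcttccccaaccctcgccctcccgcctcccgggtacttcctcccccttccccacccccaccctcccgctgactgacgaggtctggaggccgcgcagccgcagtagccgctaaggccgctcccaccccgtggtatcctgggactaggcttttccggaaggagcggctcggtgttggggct
MTAP (chr9:21802386-21802685, plus strand): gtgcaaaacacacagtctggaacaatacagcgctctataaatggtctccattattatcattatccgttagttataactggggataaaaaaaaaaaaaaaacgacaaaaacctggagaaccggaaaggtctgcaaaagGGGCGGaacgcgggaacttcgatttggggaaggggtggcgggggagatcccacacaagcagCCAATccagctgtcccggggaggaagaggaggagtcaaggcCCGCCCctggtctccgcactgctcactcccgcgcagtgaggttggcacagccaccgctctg
CDKN2A, downstream start (chr9:21974808-21975107, minus strand): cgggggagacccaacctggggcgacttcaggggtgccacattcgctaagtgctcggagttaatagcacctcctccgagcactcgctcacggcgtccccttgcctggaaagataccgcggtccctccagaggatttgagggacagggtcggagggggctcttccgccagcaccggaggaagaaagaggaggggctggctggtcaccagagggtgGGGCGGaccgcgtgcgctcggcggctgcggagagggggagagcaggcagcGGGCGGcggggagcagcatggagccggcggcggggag
CDKN2A, upstream start (chr9:21995275-21995574, minus strand): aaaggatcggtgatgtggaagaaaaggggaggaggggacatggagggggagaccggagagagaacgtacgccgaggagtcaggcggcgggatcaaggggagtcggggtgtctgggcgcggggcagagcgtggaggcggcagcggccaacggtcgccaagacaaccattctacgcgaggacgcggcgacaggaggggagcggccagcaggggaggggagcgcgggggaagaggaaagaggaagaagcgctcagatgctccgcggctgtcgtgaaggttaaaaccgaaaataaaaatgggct
CDKN2B-AS1 (chr9:21994541-21994840, plus strand): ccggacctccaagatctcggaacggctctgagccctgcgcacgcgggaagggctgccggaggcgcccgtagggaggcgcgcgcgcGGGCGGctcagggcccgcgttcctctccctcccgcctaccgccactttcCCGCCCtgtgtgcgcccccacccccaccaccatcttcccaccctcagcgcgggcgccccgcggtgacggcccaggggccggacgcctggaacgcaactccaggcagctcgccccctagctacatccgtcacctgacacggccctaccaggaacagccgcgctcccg

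The MTAP window holds 2 GC boxes and 1 CCAAT box. The downstream CDKN2A window and the CDKN2B-AS1 window hold 2 GC boxes each, and the upstream CDKN2A window and that of KLHL9 hold none of the motifs. The letters CACGTG are in none of these 5 windows. Of all 35116 RefSeq windows of the same length, 7.26% hold CACGTG, 45% hold a GC box and 34.6% hold a CCAAT box. The dinucleotide CG occurs 36 times in the CDKN2B-AS1 window, 28 and 26 times in the upstream and downstream CDKN2A windows, 19 times in that of KLHL9 and 15 times in that of MTAP, where the median of all windows is 14. A match describes the letters only, and its absence from a window says nothing of any factor.

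MTAP, which starts the salvage of methionine from methylthioadenosine, was close to absent in shMYC2-labelled libraries and abundant in every other library. Its values were 10381, 10703 and 9547 normalized reads in MYC T58A, 7572, 7496 and 7928 in shMYC1-labelled libraries, 151.8, 134.5 and 146.3 in shMYC2-labelled ones, 5385, 5506 and 4884 in Resistant, and 7185, 7477 and 7416 in Parental. The shMYC2-labelled libraries stood far below the other 12, whose lowest value was 4884, and MYC T58A stood above all others. The low level was still counted from 413 reads in the 3 shMYC2-labelled libraries, against 16268 in Resistant (exact 95% Poisson interval from counting alone 374.1 to 454.8 reads). It was thus well above the limit that a count of 0 allows. In GENCODE v29, transcripts of AL359922.1 and ERVFRD-3 on chromosome 9 match MTAP at 100% over 463 and 684 bases. AL359922.1 also shares 475 exon bases with CDKN2B-AS1 on the same strand. Whether all 413 reads came from MTAP itself was not tested. In bulk RNA, fewer cells that express a gene and less of its RNA per cell cannot be told apart.

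The group means of MTAP were 10210 ± 597 normalized reads in MYC T58A, 7666 ± 231 in shMYC1-labelled libraries, 144.2 ± 8.81 in shMYC2-labelled ones, 5258 ± 330 in Resistant and 7359 ± 154 in Parental (SD, n = 3 each). MTAP was thus 36.5-fold lower in shMYC2-labelled libraries than in Resistant (log2 difference -5.18, SE 0.057). It was 51-fold lower than in Parental, 53.2-fold lower than in shMYC1-labelled libraries and 70.8-fold lower than in MYC T58A. The remaining differences were of a different order of size. The ratio of means was 0.715 ± 0.047 for Resistant over Parental (log2 -0.49), 1.39 ± 0.086 for MYC T58A over Parental (0.47) and 1.46 ± 0.10 for shMYC1-labelled libraries over Resistant (0.55), with a standard error of 0.057 for each log2 difference. The libraries overlapped in none of these 4 comparisons. Such separation was common, since libraries did not overlap for 63.5% of the 17012 genes tested in Resistant against Parental, 72.7% in MYC T58A against Parental, 60.1% in shMYC1 against Resistant and 81.3% in shMYC2 against Resistant. In order of level the groups ran from MYC T58A through shMYC1, Parental and Resistant to shMYC2. The closest neighbours in that order, shMYC1 and Parental, had a ratio of 1.04 ± 0.038 and had their nearest libraries at 7496 and 7477 normalized reads.

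CDKN2A, the gene of p16INK4a and ARF, was at a low level in 12 libraries and had 1 read in all in the 3 shMYC2-labelled libraries. Its values were 62.1, 51.9 and 78.4 normalized reads in MYC T58A, 75.2, 63.5 and 61.2 in shMYC1-labelled libraries, 0, 1.04 and 0 in shMYC2-labelled ones, 38.4, 47.9 and 39.1 in Resistant, and 53, 43 and 34.4 in Parental. No shMYC2-labelled library came near the lowest of the other 12, at 34.4. From that single read, against 130 reads in Resistant, the mean was 120-fold lower in shMYC2-labelled libraries than in Resistant, with an interval from counting alone of 21.2 to 4783. The log2 difference was -5.07 (SE 0.27) on the log2(value + 1) scale, which understates the change of a gene with so few reads. It ranged from -7.53 with a pseudocount of 0.1 to -2.32 with one of 10, and under quantile normalization the ratio of means was 0.0940 in place of 0.00831, outside that interval. The size of this difference is thus not fixed by these libraries, though its direction was the same under all alternatives run.

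Among the other 4 groups the means of CDKN2A were 64.2 ± 13.4 normalized reads in MYC T58A, 66.6 ± 7.49 in shMYC1-labelled libraries, 41.8 ± 5.30 in Resistant and 43.5 ± 9.27 in Parental (SD, n = 3 each). Resistant and Parental libraries overlapped (ratio of means 0.962 ± 0.24), and so did MYC T58A and Parental libraries (1.48 ± 0.44). The shMYC1-labelled libraries lay above those of Resistant without overlap (1.59 ± 0.27, log2 difference 0.66, SE 0.27), and above those of Parental (1.53 ± 0.37). The lowest MYC T58A library, at 51.9, also lay above the highest of Resistant, at 47.9. In order of level shMYC1 and MYC T58A could not be separated from each other by their libraries, nor Parental from Resistant. GENCODE v29 places 341 bases of CDKN2A exon on the opposite strand of exons of CDKN2B-AS1. The strand counted is not given in the sources used here, so reads from those bases cannot be assigned to either gene, and reads from the p16INK4a and ARF starts are in one sum.

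KLHL9, the adaptor of the CUL3 ligase, was at nearly the same level in every library, shMYC2-labelled ones included. It stood at 3140, 3228 and 2932 normalized reads in MYC T58A, 2492, 2749 and 2671 in shMYC1-labelled libraries, 3111, 2955 and 3243 in shMYC2-labelled ones, 2613, 2561 and 2425 in Resistant, and 2759, 2838 and 2725 in Parental. The shMYC2-labelled libraries were among the highest, where for MTAP and CDKN2A they were the lowest. The group means were 3100 ± 152 in MYC T58A, 2637 ± 131 in shMYC1-labelled libraries, 3103 ± 144 in shMYC2-labelled ones, 2533 ± 96.7 in Resistant and 2774 ± 57.8 in Parental (SD, n = 3 each). Ratios of means were 0.913 ± 0.040 for Resistant over Parental (log2 difference -0.13), 1.12 ± 0.059 for MYC T58A over Parental (0.16), 1.04 ± 0.065 for shMYC1-labelled libraries over Resistant (0.06) and 1.23 ± 0.074 for shMYC2-labelled ones over Resistant (0.29, SE 0.052). Only shMYC1-labelled libraries overlapped with those of Resistant among these 4 comparisons. The last ratio was 1.11 when libraries were scaled to their total counts. In order of level, shMYC2 and MYC T58A overlapped, as did Parental and shMYC1, and shMYC1 and Resistant.

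**Figure D1:**
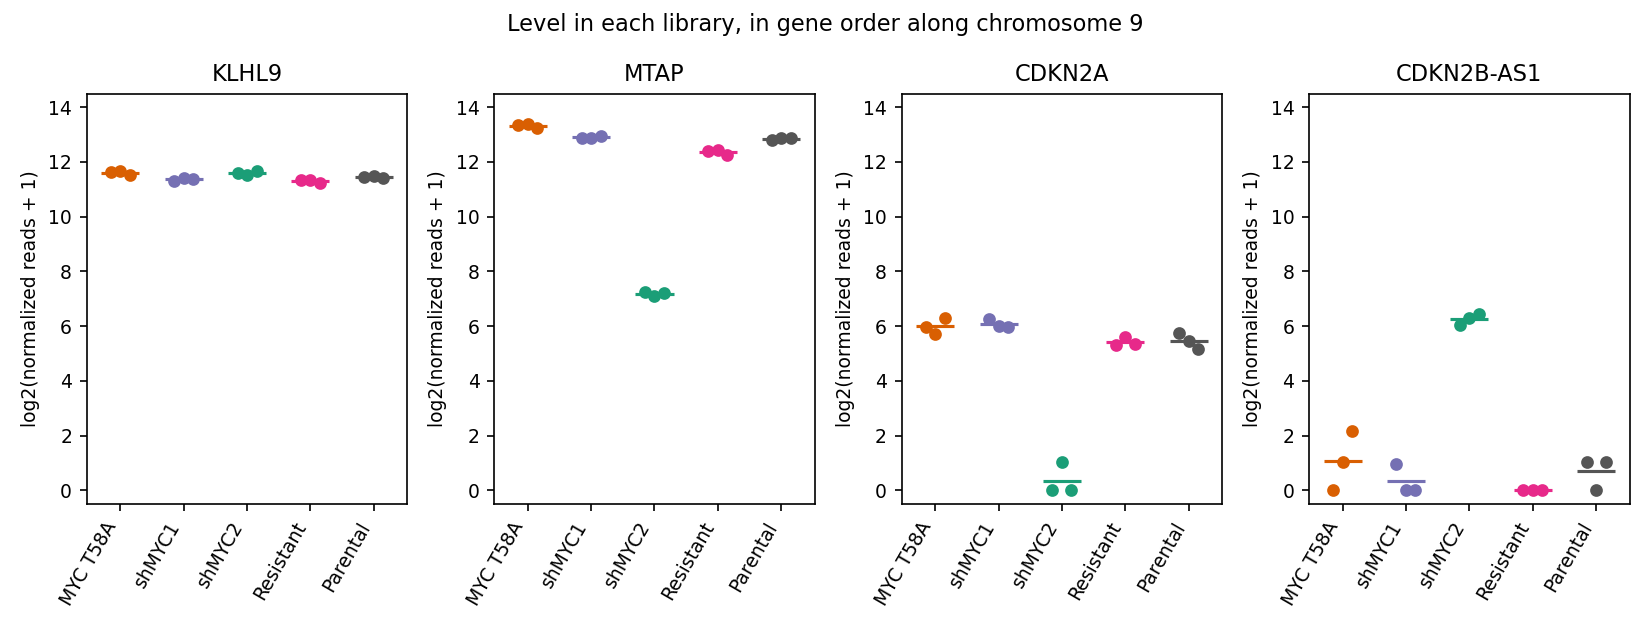
The level of KLHL9, MTAP, CDKN2A and the neighbouring antisense RNA CDKN2B-AS1 in each library, as log2(normalized reads + 1) on the vertical axis, with a point for each library, a bar at the mean of the 3 points, and the groups along the horizontal axis. KLHL9 is at nearly one level throughout, MTAP and CDKN2A are lowest in shMYC2-labelled libraries (means of 144.2 and 0.348 normalized reads), and CDKN2B-AS1 is highest there (75.9).

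Set against KLHL9 within each library, which removes the size factor, MTAP gave a ratio of reads of 3.26 to 3.32 in MYC T58A, 2.73 to 3.04 in shMYC1-labelled libraries, 0.0451 to 0.0488 in shMYC2-labelled ones, 2.01 to 2.15 in Resistant and 2.60 to 2.72 in Parental. The order of the groups was that of the MTAP levels, and no groups overlapped. The same ratio for CDKN2A, in percent of KLHL9, was 1.61 to 2.68 in MYC T58A, 2.29 to 3.02 in shMYC1-labelled libraries, 0 to 0.0353 in shMYC2-labelled ones, 1.47 to 1.87 in Resistant and 1.26 to 1.92 in Parental. These ratios are compared between libraries only, since reads are not scaled for gene length. They cannot show which of the members differed between groups.

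The neighbours of MTAP and CDKN2A were laid out in the order of GENCODE v29, in which 83.8% of the tested genes had a matching name. The low levels of MTAP and CDKN2A with shMYC2 stood between KLHL9 and CDKN2B-AS1, both of them higher than in Resistant. On the telomere side, KLHL9, the long non-coding RNA MIR31HG, the interferon gene IFNE and the pseudogene KHSRPP1 come before MTAP. MIR31HG, the host of a microRNA, had 116.3, 108.5 and 108.4 normalized reads in shMYC2-labelled libraries, against 35.2, 47.0 and 42.8 in Resistant. It rose 2.67-fold (log2 difference 1.40, SE 0.17, limma adjusted p = 6.24e-07), and 2.21-fold in shMYC1-labelled libraries against Resistant (1.12, adjusted p = 2.35e-05). IFNE, an interferon of epithelia, was low throughout, with 9.21 to 16.1 normalized reads in shMYC2-labelled libraries and 9.10 to 10.7 in Resistant (adjusted p = 0.373), and KHSRPP1, named after its values were seen, stood at 12.9 in shMYC2-labelled libraries and 7.35 in Resistant (adjusted p = 0.0937).

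On the centromere side the next gene, CDKN2B-AS1, was read almost only in shMYC2-labelled libraries. It had 64.6, 78.2 and 84.9 normalized reads there, and no read in the 3 Resistant libraries. Elsewhere it had 5 reads in the 3 libraries of MYC T58A, 1 in shMYC1-labelled ones and 2 in Parental, so its libraries were separate from all 12 others. It rose at least 26-fold in shMYC2-labelled libraries against Resistant, where the bound takes 3 reads in each Resistant library (log2 difference 6.26, SE 0.49). CDKN2B-AS1 reached the level required for testing only in the shMYC2-labelled libraries, so no p is given for it.

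DMRTA1, a member of the DMRT family of transcription factors that lies farther on, fell in shMYC2-labelled libraries, with 37.7, 39.6 and 40.9 normalized reads against 119.5, 122.2 and 111.1 in Resistant (log2 difference -1.55, SE 0.13, limma adjusted p = 2e-09). It rose in MYC T58A, to 175.7 ± 6.54 normalized reads against 90.8 ± 5.34 in Parental (0.95, adjusted p = 3.29e-06). Beyond it ELAVL2, an RNA-binding protein of neurons, rose 2.69-fold in shMYC2-labelled libraries against Resistant (815.6 ± 8.64 normalized reads with shMYC2 and 303.0 ± 29.1 in Resistant, log2 difference 1.43, adjusted p = 2.41e-11), and fell in MYC T58A against Parental (138.3 ± 4.37 in MYC T58A and 282.2 ± 6.65 in Parental, -1.02, adjusted p = 8.58e-09). On the far side of KLHL9, FOCAD, a large focal adhesion gene, stood at 2113 ± 150 normalized reads in shMYC2-labelled libraries and 2269 ± 88.9 in Resistant (adjusted p = 0.154), and rose in MYC T58A to 3851 ± 82.7 against 2351 ± 58.6 in Parental (0.71, adjusted p = 3.36e-08). MLLT3, a reader of histone acylation, rose 1.28-fold in shMYC2-labelled libraries (713.9 ± 33.2 against 558.8 ± 26.1 in Resistant, adjusted p = 0.00014). Of the genes named so far, MIR31HG and MLLT3 on one side of CDKN2A and CDKN2B-AS1 and ELAVL2 on the other were thus higher, and DMRTA1 was lower.

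Farther out on the telomere side the differences with shMYC2 went both ways. DENND4C, which activates small GTPases of membrane traffic, fell 1.67-fold to 1090 ± 51.2 normalized reads in shMYC2-labelled libraries, against 1824 ± 70.8 in Resistant (log2 difference -0.74, limma adjusted p = 5.54e-11). PLIN2, a coat protein of lipid droplets, fell 1.14-fold (-0.19, adjusted p = 0.000293), and RPS6, a ribosomal protein, fell 1.17-fold (-0.22, adjusted p = 0.00018). HAUS6, which helps to build the mitotic spindle, stood at 3324 ± 93.3 normalized reads in shMYC2-labelled libraries and 3270 ± 109 in Resistant (adjusted p = 0.633). ACER2, a ceramidase, rose 1.46-fold (0.56, adjusted p = 0.00908), a call that was lost without library 2 of Resistant (adjusted p = 0.0746). Beyond these, and named after their values were seen, SH3GL2 fell to a mean of 2.11 normalized reads in shMYC2-labelled libraries against 138.8 in Resistant (log2 difference -5.54, adjusted p = 7.34e-14), and ADAMTSL1 fell to 498 against 1430 in Resistant (-1.52, adjusted p = 8.66e-15). Past ELAVL2 on the centromere side, also named after their values were seen, TEK, a receptor of endothelial cells, fell to 1.38 ± 1.19 normalized reads with shMYC2 against 40.6 ± 6.53 in Resistant (adjusted p = 7.82e-07), CAAP1 fell 1.98-fold (-0.99, adjusted p = 1.84e-12), PLAA 1.60-fold (-0.68, adjusted p = 1.91e-09) and IFT74 1.42-fold (-0.50, adjusted p = 2.39e-07). The other tested genes on that side within 15 places of MTAP went both ways. MOB3B was higher with shMYC2, at a mean of 422.1 normalized reads against 225 in Resistant (0.90). TUSC1, C9orf72 and ACO1 were lower (-0.26, -0.44 and -1.52). For TUSC1 the shMYC2-labelled and Resistant libraries overlapped (480.2 to 540.3 against 503.7 to 720.1 normalized reads). LINGO2 and RBMXP2 were not called (adjusted p = 0.984 and 0.92). Against Parental, HAUS6 rose 1.53-fold in MYC T58A (0.61, adjusted p = 1.78e-09) and fell 1.20-fold in Resistant (-0.27, adjusted p = 7.02e-05).

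**Figure D2:**
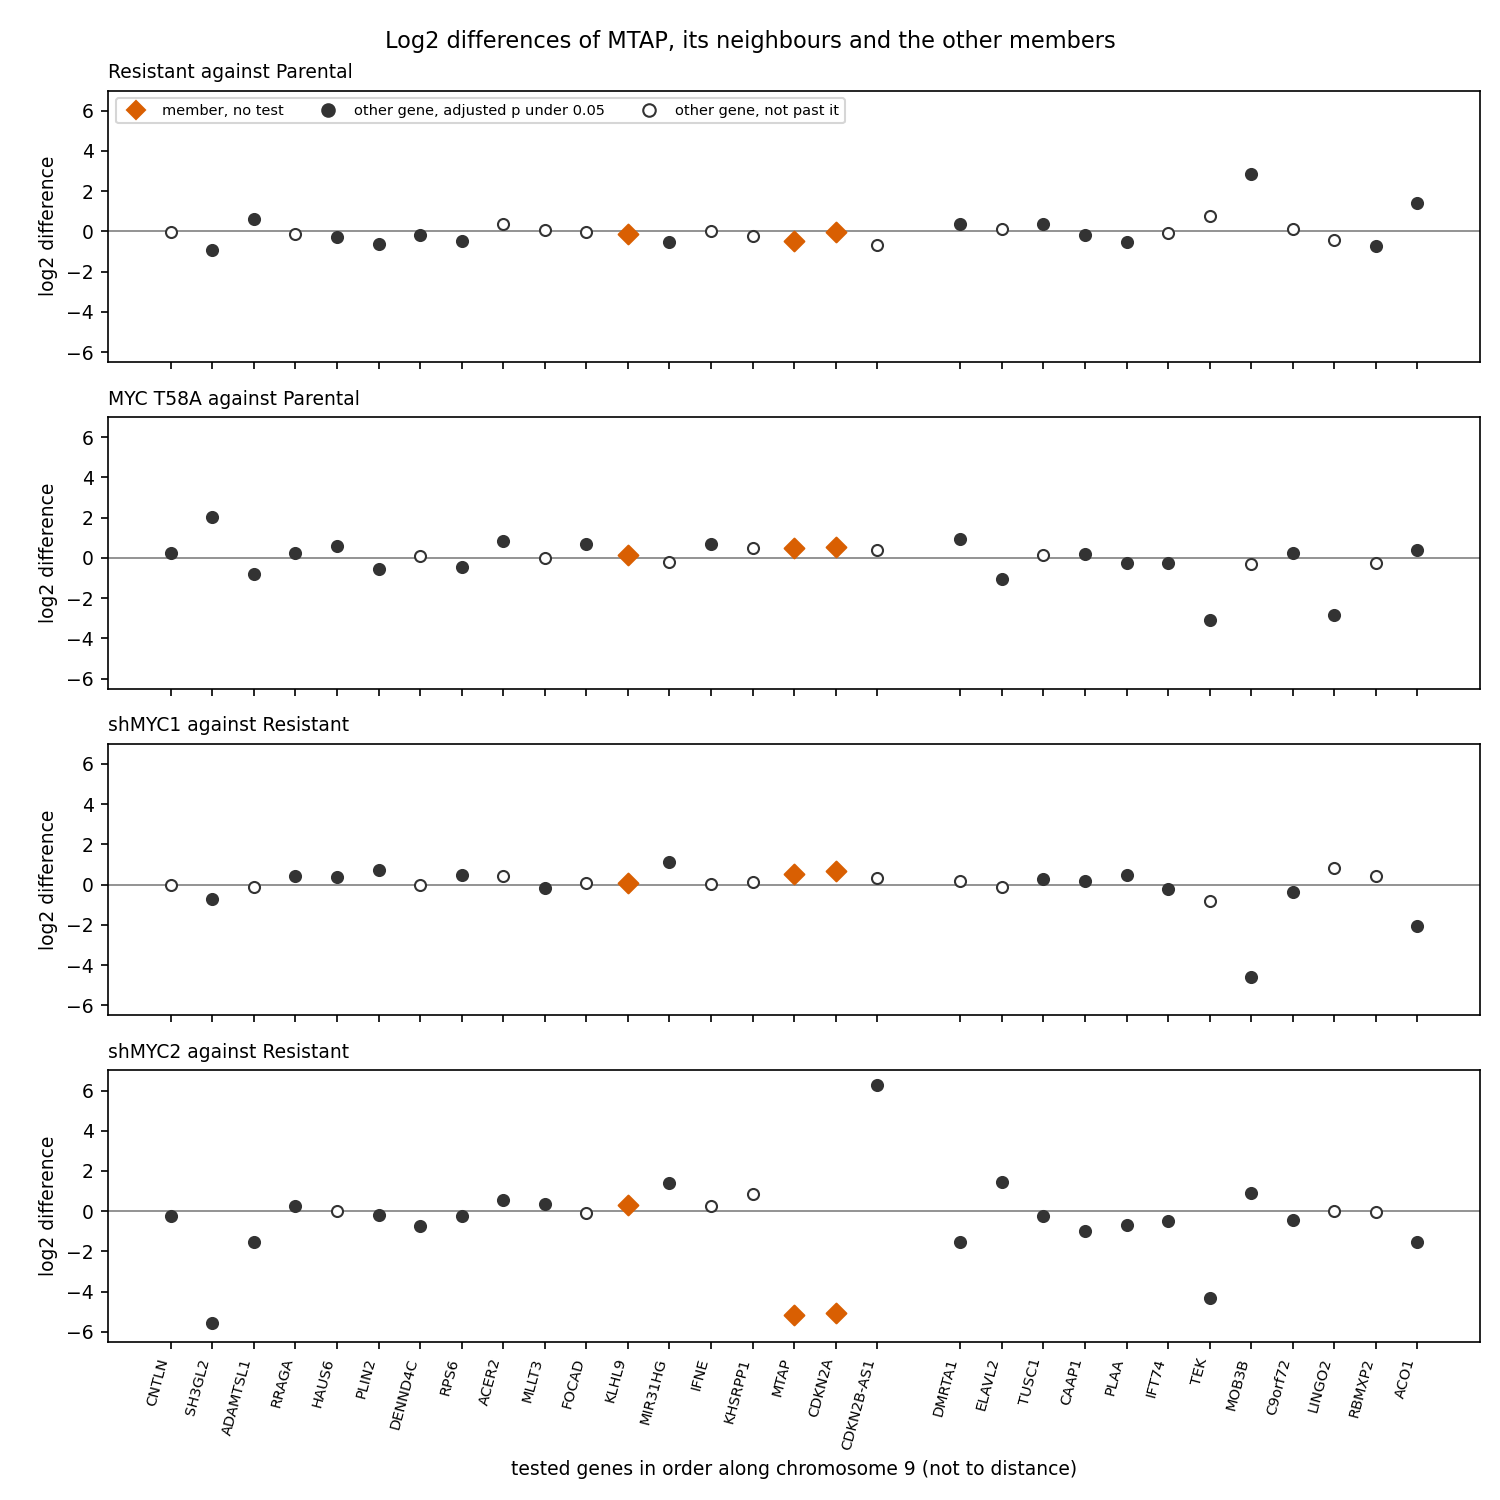
Log2 differences in normalized reads of MTAP and the 15 tested genes on each side of it (1 of them not shown), in the order of GENCODE v29 along chromosome 9 and not to distance, for the 4 comparisons. Diamonds are the members, which have no test, and circles are other genes, filled where the limma adjusted p is under 0.05. CDKN2B-AS1 entered the test only through the shMYC2-labelled libraries, so its filling carries no weight. In shMYC2-labelled libraries against Resistant, MTAP (-5.18) and CDKN2A (-5.07) lie between KLHL9 (0.29) and CDKN2B-AS1 (6.26).

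The wider stretch did not move as a block. Within 10 places of MTAP 18 genes were tested, with the members left out. In shMYC2-labelled libraries 6 were higher and 9 lower than in Resistant. The 6 include CDKN2B-AS1 and the gene after it on the centromere side. Both entered the test only through the shMYC2-labelled libraries, so those calls carry no weight. The others called higher were ACER2, MLLT3, MIR31HG and ELAVL2. Of all genes 79.2% were called, 36.2% higher and 43% lower. The median log2 difference of the 18 was -0.15, against -0.08 over all genes. In Resistant against Parental 2 of the 18 were higher and 6 lower (median -0.07), where 51.6% of all genes were called, 27.2% higher and 24.4% lower. In MYC T58A against Parental 5 were higher and 6 lower (median 0.12), where 63.8% were called, 30.1% higher and 33.7% lower. For shMYC1 against Resistant 6 were higher and 2 lower (median 0.15), where 57.1% were called, 27% higher and 30.1% lower. Of the 46 genes in a list of neighbours of the locus, 29 have a row and 28 were tested. In shMYC2-labelled libraries 7 were higher and 15 lower than in Resistant. The 7 include CDKN2B-AS1, whose call carries no weight. Between shMYC1-labelled libraries and Resistant 10 were higher and 8 lower, or 5 and 10 under total-count scaling. The same list gave 9 higher and 7 lower in Resistant and 11 and 9 in MYC T58A, each against Parental.

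MTAPP2, a pseudogene of MTAP on chromosome 3, was named after its values were seen. Its transcript matches that of MTAP over 334 bases at 96.4%, so its reads and those of MTAP could be mixed. It had no read in the 3 shMYC2-labelled libraries, and 29 reads in the 3 of MYC T58A, 29 in shMYC1-labelled ones, 22 in Resistant and 33 in Parental. It was thus without a read in shMYC2-labelled libraries alone, but unlike MTAP it was low in every group, with means of 7.03 in Resistant to 11.4 in Parental. Its call for shMYC2 against Resistant (limma adjusted p = 8.22e-07) was lost under quantile normalization (adjusted p = 0.089).

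Some genes, like MTAP and CDKN2A, had all 3 libraries of a group more than 20-fold below the lowest of the other 12. They were counted over all 17012 tested genes with a mean of at least 30 normalized reads in the other 12, limits chosen after the values were seen. The shMYC2-labelled libraries had 771 such genes (4.53%), of which 27 were among the 553 tested genes of chromosome 9. The MYC T58A group had 18, shMYC1-labelled libraries had 5, Resistant had 1 and Parental had 0. MTAP and CDKN2A were thus 2 of 771 genes with this pattern. The genes whose pattern over the 15 libraries lay nearest that of MTAP, by the root mean square difference of centred log2 values among 13579 genes, were FAR2P1 (0.235), ZNF252P (0.275), RP11-273G15.2 (0.279), ANKRD1 (0.297) and CTD-2368P22.1 (0.303). ZNF252P, a zinc finger pseudogene, averaged 1367 normalized reads in MYC T58A, 1177 in shMYC1-labelled libraries, 16.7 in shMYC2-labelled ones, 1025 in Resistant and 1246 in Parental. ANKRD1, an ankyrin repeat protein known as a target of YAP, averaged 1509 normalized reads in MYC T58A, 823 with shMYC1, 14 with shMYC2, 510.1 in Resistant and 596.1 in Parental.

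Nearest to CDKN2A were ZNF595 (0.332), NR5A2 (0.354), SARM1 (0.358), RP11-273G15.2 (0.371) and HOXA4 (0.38), and SARM1, an enzyme that consumes NAD in neurons, averaged 18.5 normalized reads in shMYC2-labelled libraries and 1076 in Resistant. Nearest to KLHL9 were TCP1 (0.0567), RPF1 (0.0599), GCLC (0.0605), TATDN1 (0.0608) and FTSJ2 (0.062). TCP1, a subunit of the chaperonin that folds actin and tubulin, was at a level 1.19-fold higher in shMYC2-labelled libraries than in Resistant. RP11-273G15.2 was near both MTAP and CDKN2A, with no read in shMYC2-labelled libraries and a mean of 29.4 normalized reads in Resistant. Where GENCODE v29 names the chromosome of these genes, it is none of them chromosome 9.

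**Figure D3:**
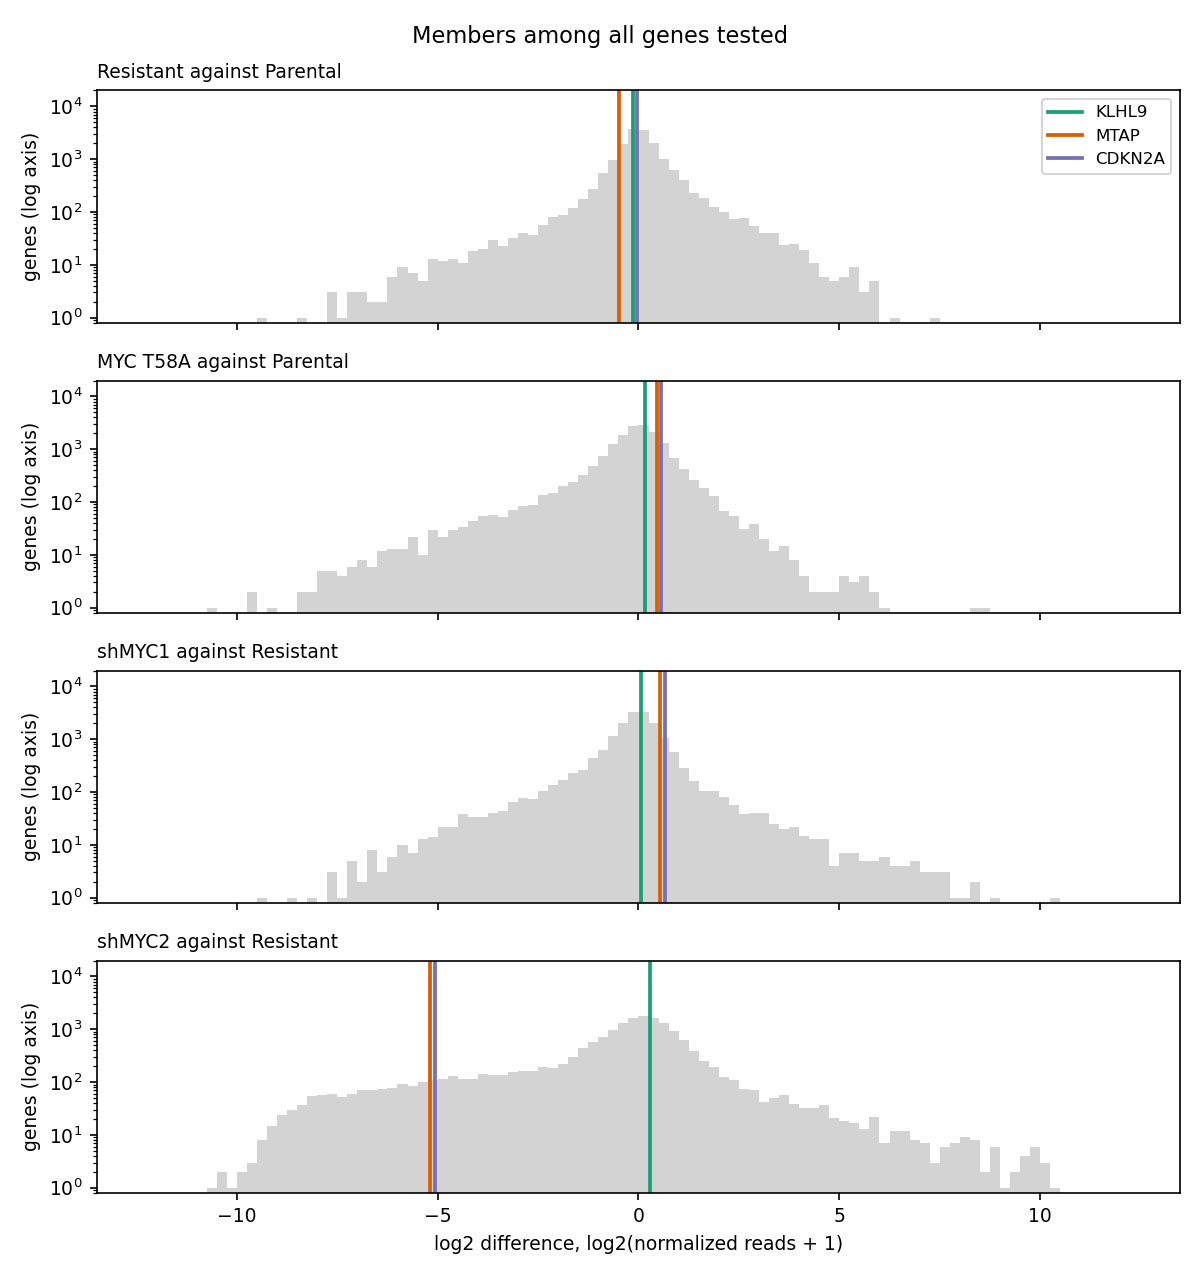
Numbers of tested genes by log2 difference on the log2(normalized reads + 1) scale (grey, counts on a log axis), for the 4 comparisons, with coloured lines at KLHL9, MTAP and CDKN2A. In the first 3 comparisons all lines lie between -0.49 and 0.66, and in shMYC2-labelled libraries against Resistant MTAP and CDKN2A lie near -5, within a long left tail of other genes.

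Around MTAP, the enzymes of methionine salvage and S-adenosylmethionine moved both ways, with 12 of 14 listed genes tested. Between shMYC2-labelled libraries and Resistant 5 were higher and 6 lower (median log2 difference -0.07, against -0.08 over all genes), or 91.7% called. Of all genes 79.2% were called in that comparison, 57.1% in shMYC1 against Resistant, 63.8% in MYC T58A against Parental and 51.6% in Resistant against Parental. The counts of this list and of those below are to be read beside these shares. MRI1, the isomerase that acts next after MTAP in the salvage pathway, fell 7.04-fold to 282.8 ± 38.0 normalized reads in shMYC2-labelled libraries, against 1990 ± 29.4 in Resistant (log2 difference -2.82, SE 0.078, limma adjusted p = 4.27e-16). MTR, which makes methionine from homocysteine, fell 3.31-fold (-1.72, adjusted p = 4.6e-15), and AHCY, which clears S-adenosylhomocysteine, rose 1.54-fold (0.63, adjusted p = 8.57e-11). With shMYC1, against Resistant, 7 were higher and 3 lower, led by MAT2A, which makes S-adenosylmethionine and rose 1.89-fold (0.92, adjusted p = 1.52e-11). MAT2A also rose 1.48-fold in MYC T58A against Parental, where 7 of the list were higher and 2 lower (0.56, adjusted p = 1.03e-08), and fell 1.53-fold in Resistant against Parental, where 3 were higher and 4 lower (-0.62, adjusted p = 5.19e-09). MYC T58A and Resistant share the Parental libraries as controls, and both hairpin comparisons share those of Resistant. The Resistant libraries also enter Resistant against Parental, so opposite directions between that comparison and the hairpin comparisons are not independent.

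Polyamine synthesis produces the substrate of MTAP. ODC1, which commits ornithine to the pathway, had 13474 ± 136 normalized reads in shMYC2-labelled libraries, against 1890 ± 95.9 in Resistant, and rose 7.13-fold (log2 difference 2.83, SE 0.046, limma adjusted p = 2.03e-19). AMD1, which makes the aminopropyl donor, rose 1.56-fold (0.65, adjusted p = 1.87e-11), while spermidine synthase SRM fell 2.05-fold (-1.03, adjusted p = 1.81e-10) and the arginase ARG2 fell 19-fold (-4.19, adjusted p = 3.69e-14). Of the 10 genes tested 5 were higher and 4 lower for shMYC2 against Resistant (90% called, against 79.2% of all genes), or 4 and 5 under total-count scaling. For shMYC1 against Resistant 5 were higher and 2 lower, or 6 and 1 under quantile normalization. In MYC T58A against Parental 4 were higher and 4 lower, and in Resistant against Parental 4 and 5. ODC1 fell in both of these, 1.21-fold in MYC T58A (-0.28, adjusted p = 3.86e-05) and 1.78-fold in Resistant (-0.83, adjusted p = 7.12e-11). SMOX, which oxidises spermine, fell as well, 2.99-fold in MYC T58A (-1.58, adjusted p = 5.11e-10) and 1.99-fold in Resistant (adjusted p = 2.97e-07).

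The genes of the PRMT5 methylosome, the complex that methylthioadenosine inhibits, were tested with all 8 of the list. In shMYC2-labelled libraries against Resistant 6 of 8 were higher and 1 lower (median log2 difference 0.325), or 4 and 1 under total-count scaling and under quantile normalization. That was 87.5% called in the main fit, against 79.2% of all genes. WDR77, the partner of PRMT5, rose 1.41-fold there (0.50, adjusted p = 5.81e-07) and RIOK1, a substrate adaptor, 1.38-fold (0.47, adjusted p = 5.95e-07), while the adaptor CLNS1A fell 1.27-fold (-0.34, adjusted p = 1.96e-05). Between shMYC1-labelled libraries and Resistant 7 were higher and 0 lower, with SNRPB, a spliceosome protein that PRMT5 methylates, 1.69-fold higher (8152 ± 1548 normalized reads with shMYC1, against 4835 ± 66.6 in Resistant, 0.74, adjusted p = 1.16e-05). In MYC T58A against Parental 6 were higher and 2 lower, led by the cofactor COPRS at 2.23-fold (1.16, adjusted p = 5.66e-08), RIOK1 at 1.78-fold (0.83, adjusted p = 7.52e-10) and SNRPD1, a spliceosome protein, at 1.71-fold (0.77, adjusted p = 1.79e-09). In Resistant against Parental 0 were higher and 6 lower, led by SNRPB at 1.81-fold lower (-0.86, adjusted p = 2.95e-06) and with PRMT5 itself at 1.22-fold lower (-0.29, adjusted p = 0.000185). The median log2 difference was 0.32 in shMYC1-labelled libraries, 0.44 in MYC T58A and -0.16 in Resistant, against -0.03, -0.02 and 0.01 over all genes.

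Downstream of p16INK4a, all 21 genes of a list of CDK4, CDK6 and RB were tested. In shMYC2-labelled libraries against Resistant 8 were higher and 7 lower (71.4% called, against 79.2% of all genes), or 7 and 11 under total-count scaling. RB1, which p16INK4a keeps active, rose 1.98-fold to 4310 ± 199 normalized reads, against 2173 ± 92.2 in Resistant (log2 difference 0.99, SE 0.056, limma adjusted p = 1.17e-11), and E2F1, a transcription factor that RB restrains, rose 1.85-fold (0.89, adjusted p = 9.83e-09). CCND2, a cyclin partner of CDK4 and CDK6, had no read in shMYC2-labelled libraries and 163.6 ± 6.92 normalized reads in Resistant (-7.36). CCNE1, the cyclin of CDK2, fell 2.65-fold (-1.41, adjusted p = 1.2e-10). With shMYC1, against Resistant, 8 were higher and 6 lower. There CDKN2D, a relative of CDKN2A that inhibits the same kinases, rose 2.68-fold (1.44, adjusted p = 2.23e-08) and CCND1 2.44-fold (1.28, adjusted p = 1.07e-13).

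Against Parental the same list gave 5 higher and 15 lower in MYC T58A (median -0.40) and 11 higher and 6 lower in Resistant (0.17). CDKN2C, a further inhibitor of CDK4 and CDK6, fell 2.39-fold in MYC T58A to 570.1 ± 12.1 normalized reads, against 1361 ± 37.9 in Parental (log2 difference -1.25, SE 0.048, limma adjusted p = 2.24e-13). CDKN1C, an inhibitor of cyclin-dependent kinases of another family, fell in MYC T58A, to 1.30 ± 1.54 normalized reads against 143.3 ± 18.7 in Parental (adjusted p = 1.31e-08), and in Resistant, to 4.96 ± 2.18 (adjusted p = 6.86e-07). In Resistant CCND1 fell 1.84-fold (-0.88, adjusted p = 3.29e-11) and CDKN1A, the gene of p21, a CDK inhibitor, rose 1.56-fold (0.64, adjusted p = 2.27e-08).

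On the ARF side, 12 genes of its pathway with MDM2 were tested. Against Parental, 8 were higher and 2 lower in MYC T58A (median log2 difference 0.60) and 9 higher and 1 lower in Resistant (0.60). In shMYC1-labelled libraries 4 were higher and 7 lower (-0.29) and in shMYC2-labelled ones 3 and 7 (-0.20), against Resistant. With shMYC2 this was 83.3% called, against 79.2% of all genes, and with shMYC1 91.7%, against 57.1%. GDF15, a secreted protein that stress signals induce, passed the test in all 4 comparisons. It rose 27.6-fold in MYC T58A, to 2462 ± 139 normalized reads against 89.3 ± 11.6 in Parental (log2 difference 4.78, SE 0.13, limma adjusted p = 3.35e-15), and 5.24-fold in Resistant (2.37, adjusted p = 9.04e-11). It fell 9.34-fold in shMYC1-labelled libraries (-3.18, adjusted p = 9.44e-13) and 7.32-fold in shMYC2-labelled ones (-2.84, adjusted p = 8.19e-13). BBC3, a gene that promotes cell death, fell 2.33-fold in shMYC2-labelled libraries (-1.20, adjusted p = 1.94e-08), while ZMAT3, a zinc finger RNA-binding protein, rose 2.52-fold (1.33, adjusted p = 2.6e-14).

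Of the partners of KLHL9 in the CUL3 ubiquitin ligase, KLHL13, which acts with KLHL9 in mitosis, was all but absent in shMYC2-labelled libraries, at 0.348 ± 0.602 normalized reads against 187.7 ± 3.05 in Resistant (log2 difference -7.22, SE 0.23, limma adjusted p = 2.6e-15), while KLHL9 itself was 1.23-fold higher. KLHL21, another adaptor of the ligase, fell 2.05-fold (-1.03, adjusted p = 4.69e-12) and the scaffold CUL3 rose 1.59-fold (0.67, adjusted p = 1.05e-09). That made 1 of 7 higher and 2 lower (42.9% called, against 79.2% of all genes), or 1 and 5 under total-count scaling. For shMYC1 against Resistant 3 were higher and 2 lower, in MYC T58A against Parental 1 and 3, and in Resistant against Parental 2 and 2. KLHL21 rose 1.82-fold in shMYC1-labelled libraries (0.86, adjusted p = 3.01e-10) and fell 1.85-fold in MYC T58A (-0.89, adjusted p = 1.69e-10).

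Polycomb proteins are known to silence CDKN2A and CDKN2B. Of 12 listed genes, 8 were higher and 2 lower in shMYC2-labelled libraries than in Resistant (median log2 difference 0.45), or 8 and 4 under total-count scaling. That was 83.3% called in the main fit, against 79.2% of all genes. CBX2, which reads the Polycomb mark, rose 3.21-fold to 764.5 ± 10.4 normalized reads, against 238.1 ± 17.3 in Resistant (1.68, SE 0.082, limma adjusted p = 1.32e-12), PHC2 rose 2.19-fold (1.13, adjusted p = 3.63e-13) and the ubiquitin ligase RNF2 1.61-fold (0.69, adjusted p = 1.48e-09). The genes that fell were EED, a subunit of the complex that writes the mark (1.21-fold, -0.28, adjusted p = 0.000209), and CBX7, which has been tied to the silencing of CDKN2A (1.35-fold, -0.45, adjusted p = 0.00208), whose call was lost under quantile normalization (adjusted p = 0.7). CBX2 and PHC2 also rose in shMYC1-labelled libraries against Resistant, 2.95-fold and 2.05-fold, where 9 genes were higher and 1 lower (median 0.28). Against Parental, 4 were higher and 6 lower in MYC T58A and 2 higher and 5 lower in Resistant. CBX7 fell 2.63-fold in MYC T58A (-1.39, adjusted p = 9.75e-09).

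**Figure D4:**
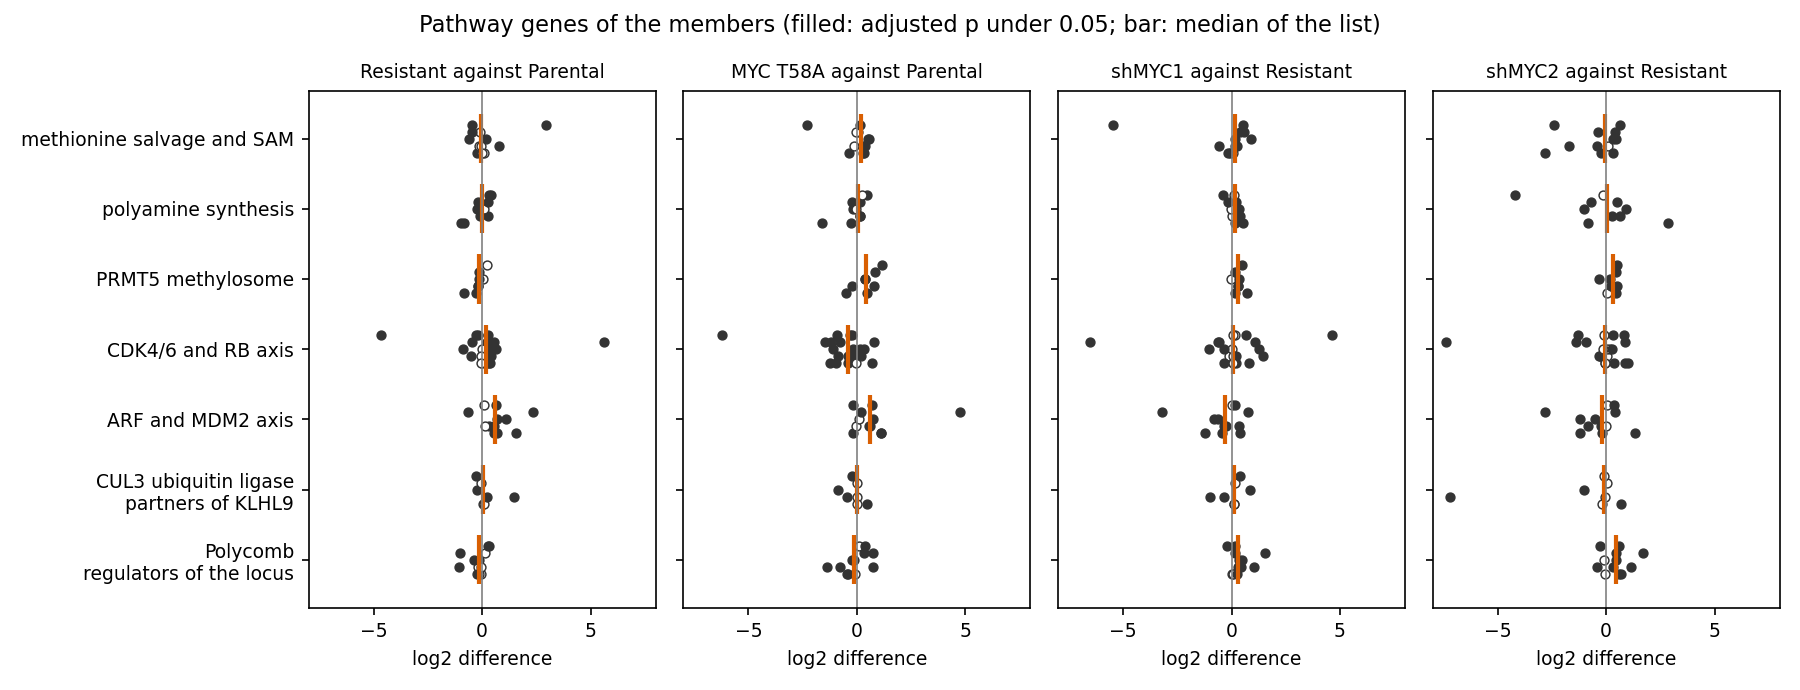
Log2 differences in normalized reads of the genes of 7 pathway lists (rows) in the 4 comparisons (panels), with a circle for each gene, filled where the limma adjusted p is under 0.05, and an orange bar at the median of the list. In shMYC2-labelled libraries against Resistant the genes farthest from 0 are CCND2, without a read there, and KLHL13 (-7.22).

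KLHL9 lies within the cluster of type I interferon genes, of which IFNE is the one described here. Of 12 genes of the response to these interferons, 3 were higher and 8 lower in shMYC2-labelled libraries than in Resistant, or 3 and 5 under quantile normalization. That was 91.7% called in the main fit, against 79.2% of all genes. OAS1, an antiviral sensor of double-stranded RNA, fell to 0.707 ± 0.612 normalized reads, against 169.9 ± 4.14 in Resistant (log2 difference -6.72, limma adjusted p = 3.42e-15), whereas the receptor chain IFNAR1 rose 1.95-fold (0.96, adjusted p = 2.93e-11). Between shMYC1-labelled libraries and Resistant 1 was higher and 9 lower. In MYC T58A against Parental 1 was higher and 7 lower, or 2 and 5 under quantile normalization, and in Resistant against Parental 7 were higher and 0 lower. IFI44L, an interferon-induced gene, rose 4.23-fold in Resistant (2.08, adjusted p = 3.44e-08) and fell 4.6-fold in MYC T58A (-2.20, adjusted p = 9.79e-09).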

How the data were processed

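Per the labels' protocols, RNA came from a Qiagen kit and a Kapa kit for stranded mRNA gave the libraries. The submitters' processing notes list DESeq2, HTSeq, STAR, cutadapt and Trim Galore, with no versions; no source used here gives the genome build, the annotation or the strand setting. The table deposited by the authors holds a signal per gene symbol, the count of reads over a scaling factor of its library. The values themselves show this, since every column steps in multiples of 1 value (0.8814 to 1.077, all values whole within 0.01, or 100%), and median-ratio factors from those reads deviate by 0.017% at most. All genes listed have 10 reads or more in some library.

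Values were transformed to log2(value + 1). Genes at 10 or more in at least 3 libraries (17012) were fitted with limma 3.58.1 (trend, robust) in R 4.3.3, with a mean for each of 5 groups over all 15 libraries. P-values carry the Benjamini-Hochberg correction for these genes, were called under 0.05, and measure only the spread between these libraries, which may be technical. Alternatives, some of them with edgeR 4.0.16 and DESeq2 1.42.0 on the recovered reads, were other scalings, filters and pseudocounts, and leaving out each library. The table's columns carry no replicate number of the labels, so libraries are numbered by their place in it. The fit was tested on simulated counts for Resistant against Parental, with few genes changed and the same spread beyond counting for every gene. These data differ from that setting, since most tested genes were called in each comparison.

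The members and gene lists were chosen with earlier results of these data known. Named genes are the members, their listed neighbours, called genes of each list with a mean of at least 50 in a group (up to 3 in each direction), and the 5 nearest to each member in pattern. Bounds take 3 reads per library, and 95% intervals are exact Poisson intervals that cover counting error only. Gene order is from GENCODE v29, and start windows and their coordinates are from RefSeq (GRCh38.p14). Some genes of these lists are not reported here.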

Additional observations from a re-analysis of the deposited data

Results flagged for a closer look

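MTAP and CDKN2A differed in opposite directions in the groups labelled with either hairpin. Against Resistant, the ratio of means of MTAP was 1.46 with shMYC1 and 0.0274 with shMYC2. For CDKN2A it was 1.59 with shMYC1 and 0.00831 with shMYC2. In both genes every shMYC1-labelled library was above, and every shMYC2-labelled library below, all 3 of Resistant. Such separation was common, with libraries not overlapping for 60.1% of the tested genes in shMYC1 against Resistant and 81.3% in shMYC2 against Resistant. How many genes separated in opposite directions was not counted. The difference of MTAP and CDKN2A between the labels was not tested, since the members were chosen for their pattern. MYC, the gene that both hairpins are labelled to target, was higher than in Resistant under both labels.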

How the results depend on the processing

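No paired analysis was possible because the table's columns carry running numbers in place of the replicate numbers of the labels. Every count of genes called stayed within 1.5 times under the alternatives run, and no ratio that separated the libraries of its groups changed direction. Against Resistant in shMYC2-labelled libraries, the ratio of MTAP was 0.0248 under total-count scaling and 0.0345 under quantile normalization, that of KLHL9 was 1.11 and 1.12, and that of CDKN2A was 0.0940 under quantile normalization. The ratio of CDKN2A in shMYC1-labelled libraries was 1.92 under quantile normalization. The cause was not tested. The median log2 difference of all genes for shMYC2 against Resistant was -0.08, and it was -0.22 under total-count scaling and 0.15 under quantile normalization. Leaving out 1 library at a time moved no ratio by more than its spread, but that of CDKN2A for Resistant over Parental, whose libraries overlap, ranged across 1 (0.872 to 1.08). That of KLHL9 for shMYC1 over Resistant, whose libraries overlap too, was 0.992 under total-count scaling. Without library 2 of shMYC2, which holds its single CDKN2A read, CDKN2A is at 0. Without the shMYC2-labelled libraries in the fit, the MTAP log2 differences were -0.49 for Resistant and 0.47 for MYC T58A, each against Parental, and 0.55 for shMYC1 against Resistant, as with them. Among the calls named with a p, those of MTAPP2, ACER2 and CBX7 for shMYC2 were lost under an alternative, and no others (SH3GL2 and ADAMTSL1 were not checked). Depth limits CDKN2A, with 126 to 215 reads in the 3 libraries of a group other than shMYC2.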
